A study of Canis lupus familiaris with 18 samples.

Results

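The comparison set the 6 canine osteosarcomas with the most cartilage-gene message against the 6 with the least, out of 18 tumours. For each of COL2A1, ACAN, CNMD (older symbol LECT1) and SOX9 the probe set of highest mean over the 18 arrays was taken and standardised across the arrays. The mean of the 4 standardised values was the cartilage score. The 6 tumours of highest score are called cartilage-rich, the 6 of lowest score cartilage-poor, and the 6 between them the middle tumours. The names describe the message of these 4 genes only, since the labels give no histological subtype.

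The study profiled primary tumours of dogs on 1-colour Affymetrix canine arrays, 1 array per tumour. Of the 18 tumours, 9 came from dogs with a normal and 9 from dogs with an increased serum concentration of alkaline phosphatase (ALP), an enzyme released by osteoblasts and by the liver. The tissue had been frozen at surgery, biopsy or necropsy, and the labels do not say which applied to which tumour, nor give a treatment, age, breed or scan date. No normal bone or cartilage was profiled. Each tumour is named here by its serum ALP group and the number its label carries. The labels speak of patients but do not state that every tumour came from a separate dog, so p-values measure the spread between these samples.

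Cartilage matrix is built on a network of type II, IX and XI collagen fibrils that holds aggrecan, a large proteoglycan fixed to hyaluronan by link protein. SOX9, acting with SOX5 and SOX6, drives the genes of this matrix in chondrocytes. Osteosarcoma is defined by bone matrix made by the tumour cells, and some osteosarcomas also lay down cartilage. In whole-tumour RNA, more cells of a type and more message per cell cannot be told apart.

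The 4 scoring genes chose the sides, so their values are a description and were not tested. The score was 1.28, 1.15 and 1.14 in normal ALP tumour 7, normal ALP tumour 3 and increased ALP tumour 6, and 0.371, 0.291 and 0.234 in normal ALP tumour 4, increased ALP tumour 5 and increased ALP tumour 3. A wide step therefore separated 3 of the cartilage-rich tumours from the other 3. The upper limit fell in a dense stretch, with increased ALP tumour 7 just outside it at 0.212. On the poor side, normal ALP tumour 9 lay just inside at -0.422 and increased ALP tumour 8 just outside at -0.392. The lowest score, -1.42, belonged to increased ALP tumour 2.

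The genes behind the score did not rank the tumours alike. COL2A1, the main fibrillar collagen of cartilage, averaged 9.41 ± 2.50 (SD, n = 6) on the deposited log2 scale in the cartilage-rich and 6.69 ± 1.72 (SD, n = 6) in the cartilage-poor tumours. ACAN, the aggrecan core protein, averaged 10.7 ± 0.75 and 8.74 ± 1.66 (SD, n = 6 each). CNMD, the chondrocyte glycoprotein chondromodulin, averaged 9.48 ± 2.54 and 5.99 ± 0.65 (SD, n = 6 each). SOX9 averaged 7.69 ± 0.89 and 6.02 ± 0.14 (SD, n = 6 each), and its level was nearly flat across the poor side. Normal ALP tumour 4 stood on the rich side with the lowest COL2A1 value of all 18 tumours, 4.54, beside an ACAN value of 11.3. Increased ALP tumour 2, at the foot of the order, had an ACAN value of 5.80, the lowest of the 18. Across the 18 tumours the Pearson correlations between the 4 genes, which share arrays, ran from 0.117 for COL2A1 with CNMD to 0.579 for ACAN with SOX9.

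**Figure D1:**
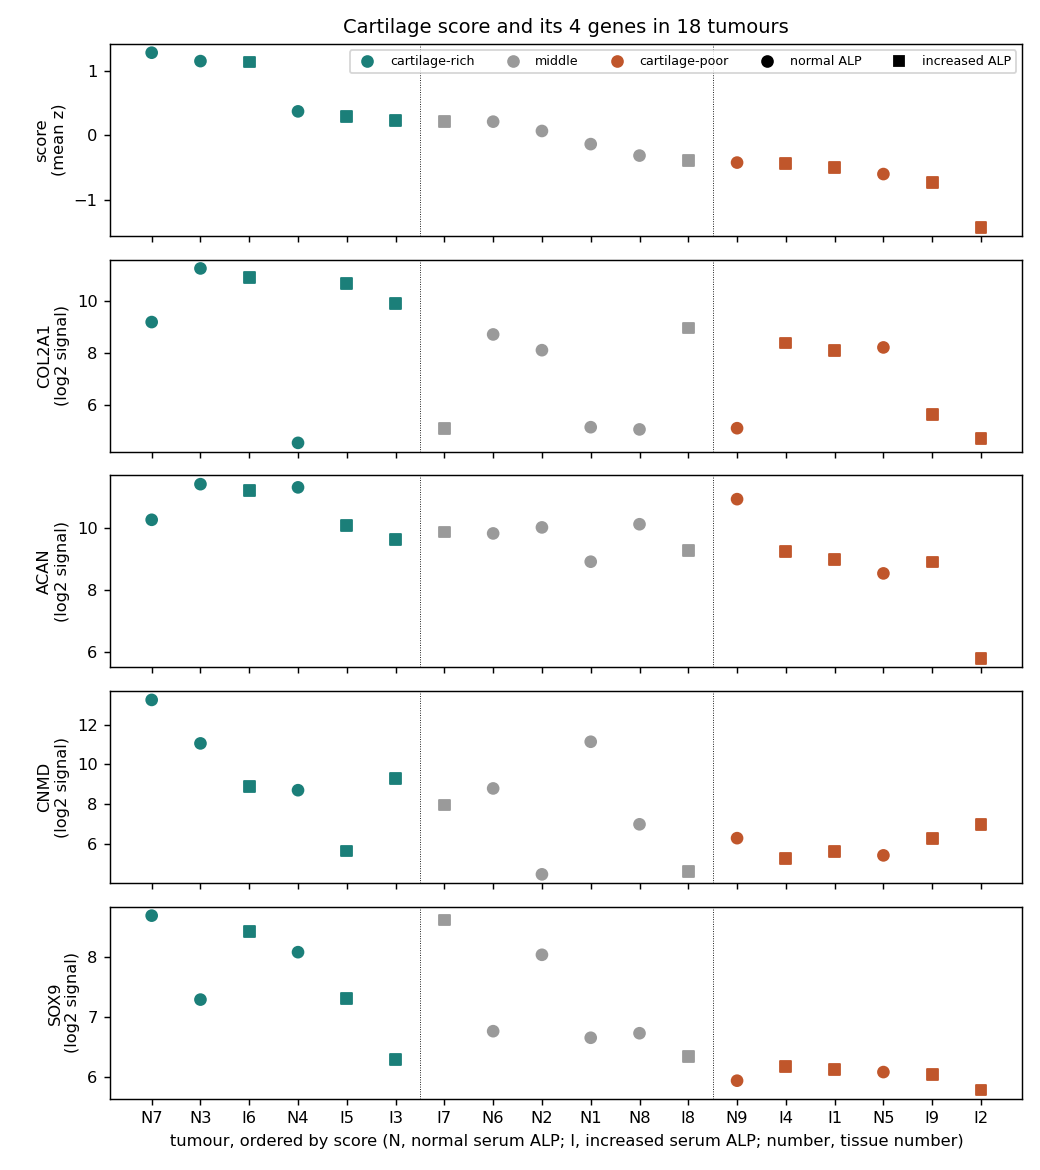
The cartilage score (top panel) and the deposited log2 signal of its 4 genes in the 18 tumours, ordered by score from left to right, with circles for normal and squares for increased serum ALP. Dotted lines mark the 6 cartilage-rich, 6 middle and 6 cartilage-poor tumours; normal ALP tumour 4 is among the rich despite a COL2A1 value of 4.54.

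Both serum ALP groups were found on both sides. The cartilage-rich tumours were 3 with normal and 3 with increased serum ALP, the cartilage-poor 2 with normal and 4 with increased, and the middle 4 with normal and 2 with increased. Fisher's exact test, two-sided, gave p = 1 for side against serum ALP group. The score ran from -0.599 to 1.28 with a median of 0.07 in the normal group, and from -1.42 to 1.14 with a median of -0.39 in the increased group. With COL2A1 left out of the score, the rich side held 4 normal and 2 increased and the poor side 1 normal and 5 increased (Fisher's exact p = 0.242).

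Across all other genes, no probe set passed the threshold between the sides. After limma's moderated test with Benjamini-Hochberg adjustment, 0 of 25751 probe sets (0.0%) fell below 0.05, the lowest adjusted value being 0.238. Before adjustment limma put 2937 probe sets (11.4%) below 0.05, of which 37.9% were higher in the cartilage-rich tumours. This split moved with scaling, to 53.8% higher when each array was scaled to its 75th percentile and 46% after quantile normalization. Counted by gene, with the probe set of highest mean for each of 10713 genes, 473 (4.42%) were higher and 699 (6.52%) lower at that unadjusted level. By the sign of the difference alone, 5258 of the 10713 were higher and 5455 lower. Of 85 genes followed under the alternative settings, 61 had a difference more than 1.5 times smaller, or of turned sign, under at least 1 of them, and such values are given beside many of the genes below. All 6 rich tumours stood above all 6 poor tumours for 44 genes (0.411%) and below them for 52 (0.485%). The sides were selected on genes of the same arrays, and the p-values take no account of that selection.

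The arrays of the sides also differed in technical measures. The array median was higher in the rich tumours, 6.29 to 6.31 against 6.25 to 6.28 on the log2 scale, without overlap (exact permutation p = 0.00216, the smallest that 6 against 6 allows; adjusted over 8 measures, 0.0173). The difference between the 3′ and 5′ GAPDH control probe sets, a sign of RNA length, ran from 0.69 to 1.54 in the rich and from 0.62 to 0.90 in the poor tumours (exact permutation p = 0.0346, adjusted 0.11). With that difference as a covariate the lowest adjusted p from limma was 0.637, and 7.08% of probe sets lay below 0.05 before adjustment. Increased ALP tumours 3 and 6, both cartilage-rich, had the highest BioB hybridisation control signals of the 18, 10.3 and 9.89. Without these 2 tumours limma again called 0 probe sets, with a lowest adjusted p of 0.515, and 46.3% of those below 0.05 before adjustment were higher. Beyond these fits, the part of the measures in the differences below was not tested. Leaving out normal ALP tumour 4 brought 4 probe sets past the threshold as higher and 1 as lower, among them HAPLN1 (a difference of 3.16, limma adjusted p = 0.0488), IGF2 (1.10, adjusted p = 0.0346) and 1 probe set of SDF2L1 (-1.26, adjusted p = 0.0488).

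Genes are described below by their log2(signal + 16) values, as the lowest, median and highest tumour of each side, with the difference of the side means. Among cartilage matrix genes outside the score, HAPLN1, which encodes link protein, showed the widest difference of any gene tested. Its level was 6.89, 9.71 and 11.08 in the cartilage-rich and 5.96, 6.46 and 7.55 in the cartilage-poor tumours. The means differed by 2.67 ± 0.58 (SE, n = 6 per side), a 6.38-fold ratio with a 95% interval of 1.43 to 3.92 on the log2 scale (limma adjusted p = 0.238). Of the 6 rich tumours 5 lay above every poor tumour, and the exception was normal ALP tumour 4, the one with the lowest COL2A1. The middle tumours spread widely, from 6.41 to 10.90, with normal ALP tumour 2 as high as the rich tumours.

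Fibril-forming and fibril-associated collagens of cartilage stood higher in most rich tumours. COL11A2, a chain of type XI collagen, was 8.24, 9.14 and 9.63 on the rich side and 7.15, 7.88 and 8.79 on the poor side, a difference of 1.10 ± 0.30 (SE; limma adjusted p = 0.291). COL9A1, a chain of type IX collagen, was 8.04, 8.65 and 10.54 against 7.89, 8.06 and 8.44, a difference of 0.79 ± 0.36 (SE; limma adjusted p = 0.431). The sides overlapped for both genes, and the COL11A2 difference was 0.289 with COL2A1 left out of the score. The COL9A1 difference was 0.458 without increased ALP tumour 6, which stood at 10.54, and 0.081 with the GAPDH 3′ to 5′ difference as a covariate. COL27A1, a further fibrillar collagen of cartilage, differed by 0.64 ± 0.36 (SE; limma adjusted p = 0.507), and 0.302 without increased ALP tumours 3 and 6; all 4 of its probe sets had that sign.

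Several non-collagenous matrix proteins followed the same order. MATN4, a matrilin that bridges matrix fibres, was 5.80, 7.87 and 9.25 in the rich and 5.73, 6.04 and 6.74 in the poor tumours, a difference of 1.56 ± 0.47 (SE; limma adjusted p = 0.304). CILP2, a relative of the cartilage intermediate layer protein, was 7.84, 8.15 and 9.66 against 7.47, 7.76 and 7.89, a difference of 0.78 ± 0.28 (SE; limma adjusted p = 0.357). OGN, a small leucine-rich proteoglycan found in bone and cartilage, was 7.18, 9.30 and 10.94 against 6.75, 7.87 and 8.63, a difference of 1.31 ± 0.54 (SE; limma adjusted p = 0.394). For MATN4 and CILP2, 5 of 6 rich tumours lay above every poor tumour, and for both the exception was again normal ALP tumour 4. For OGN the low rich value was that of normal ALP tumour 7, the tumour of highest score, where MATN4 and CILP2 were at their highest.

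COMP, the oligomeric matrix protein of cartilage and tendon, varied more within each side than between them. It ran from 7.79 to 14.44 in the rich and from 8.44 to 13.36 in the poor tumours, a difference of 1.52 ± 1.09 (SE; limma adjusted p = 0.599), which was 0.884 without normal ALP tumour 3 and 0.612 with CNMD left out of the score. The poor tumour at 13.36 was increased ALP tumour 1, and the other poor tumours reached 9.85 at most. CILP, the cartilage intermediate layer protein, had the opposite sign at -0.76 ± 0.67 (SE; limma adjusted p = 0.669), with the same median of 6.44 on both sides and a difference of -0.157 without increased ALP tumour 1. VIT, PCOLCE2 and ITGA10 were the other members with a negative difference, at -0.28, -0.39 and -0.00.

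Of the 33 genes of the cartilage matrix list, which leaves out the 4 scoring genes, 26 were on the array and 19 passed the filter on low signal. Of these 19, 15 had a higher mean in the cartilage-rich tumours and 4 a lower one, and 0 were called. The count at an unadjusted p under 0.05 was 6, all higher: HAPLN1, COL11A2, MATN4, CILP2, OGN and COL9A1. Over all genes tested, 4.42% were higher at that level. The median difference over the 19 was 0.61, beside -0.01 over all genes tested. Since the sides were selected on cartilage genes, this describes the selected tumours and is no independent evidence. The 7 members below the filter were MATN1, MATN3, EPYC, CYTL1, S100B, CLEC3A and LECT2, and with them included the median was 0.43. S100B reached 9.01 in 1 rich tumour while the rich median was 5.52.

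The level of the list in a tumour, taken as the mean deviation of its 19 tested members from their 18-tumour means, ran from 0.10 to 0.86 on the rich side and from -0.44 to 0.05 on the poor side. The sides did not overlap on this measure, for which no test is given because the members belong to the tissue that chose the sides. The middle tumours ran from -0.66 to 0.29 and so overlapped both sides. Normal ALP tumour 3 was highest, with 16 of the 19 members above their median over the 18 tumours. Normal ALP tumour 7, which had the highest score, had 10 members above their median, and normal ALP tumour 4 had 14. Among the poor tumours the count was 4 to 9. For 9 of the 19 members the mean of the middle tumours lay between the means of the sides.

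**Figure D2:**
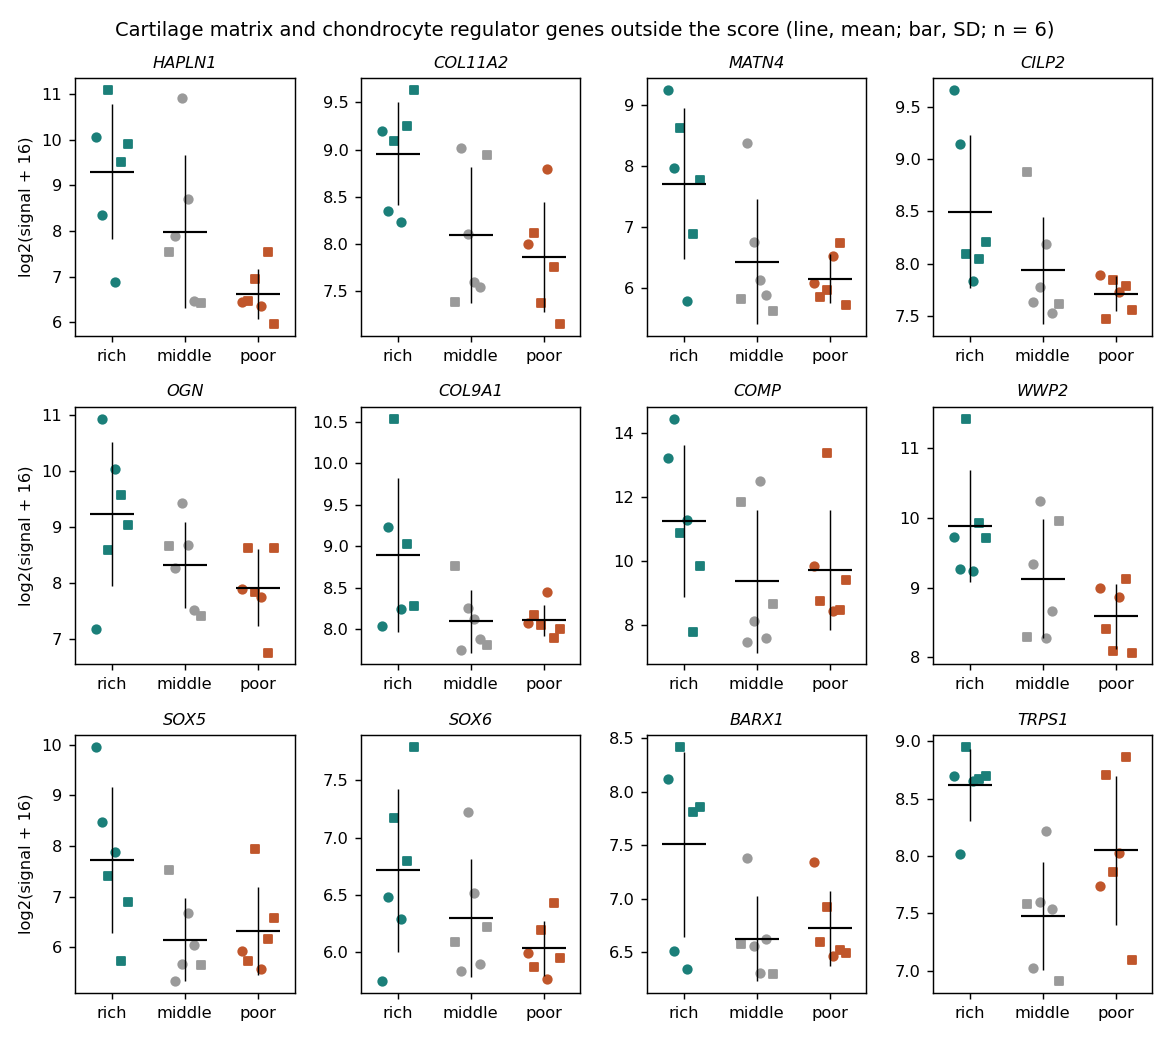
Level of 12 cartilage matrix and chondrocyte regulator genes in the 6 cartilage-rich, 6 middle and 6 cartilage-poor tumours, as log2(signal + 16), with a point for each tumour (circles, normal serum ALP; squares, increased), a line at the mean and a bar for 1 SD; vertical axes differ between panels. WWP2 is the only one of the 12 in which all rich tumours stand above all poor tumours, and in COMP a poor tumour at 13.36 lies inside the rich range.

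The partners of SOX9 were measured as well. WWP2, a ubiquitin ligase that acts with SOX9 in cartilage, was 9.24, 9.72 and 11.42 in the rich and 8.07, 8.64 and 9.12 in the poor tumours. All 6 rich tumours stood above all 6 poor tumours, as in 44 of the 10713 genes tested (0.411%). The WWP2 means differed by 1.29 ± 0.35 (SE; limma adjusted p = 0.279), with the same sign in its 4 probe sets. The WWP2 difference was 0.759 with the GAPDH covariate and 0.619 with COL2A1 left out of the score. SOX5 was 5.73, 7.65 and 9.95 against 5.58, 6.05 and 7.95, a difference of 1.40 ± 0.61 (SE; limma adjusted p = 0.417). SOX6 was 5.75, 6.64 and 7.79 against 5.77, 5.97 and 6.43, a difference of 0.68 ± 0.28 (SE; limma adjusted p = 0.393). The SOX6 difference was 0.175 with the GAPDH covariate and 0.297 without increased ALP tumours 3 and 6. That of SOX5 was 0.925 with ACAN left out of the score, and likewise without z-scores, and 2.23 with the GAPDH covariate.

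SOX5 and SOX6 were high in different tumours. SOX5 peaked at 9.95 in normal ALP tumour 7, where SOX6 was at its rich-side minimum of 5.75, and SOX6 peaked at 7.79 in increased ALP tumour 3. BARX1, a homeobox factor of skeletal mesenchyme, differed by 0.79 ± 0.34 (SE; limma adjusted p = 0.419), or 0.323 with the GAPDH covariate, and split the rich side, with normal ALP tumours 3 and 4 at 6.51 and 6.35 and the other 4 from 7.81 to 8.42. TRPS1, a growth plate zinc-finger repressor, stood at 8.69 for the rich and 7.94 for the poor median, and the middle tumours lay lowest with a median of 7.56. Over the 11 tested of 20 regulators, 9 were higher and 2 lower, and the median difference was 0.45. At an unadjusted p under 0.05, 4 of the 11 were higher, beside 4.42% of all genes. SOX9 was one of the genes that chose the sides, so the values of its partners are no independent evidence.

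Genes of the growth plate, where cartilage is replaced by bone, showed little difference. Of 25 listed, 15 were tested, 10 higher and 5 lower, with a median difference of 0.12, which was -0.003 with CNMD left out of the score. NPR2, the receptor for C-type natriuretic peptide, had the smallest p at 0.68 ± 0.22 (SE; limma adjusted p = 0.318). MMP13, the collagenase of hypertrophic cartilage, differed by 0.13, and IHH, the hedgehog ligand of prehypertrophic chondrocytes, by -0.05. COL10A1, the collagen of hypertrophic chondrocytes, lay below the filter, with a rich median of 5.69. PTHLH, which holds chondrocytes back from hypertrophy, had a difference of -0.67 ± 0.58 (SE; limma adjusted p = 0.668).

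The enzymes that build and sulfate proteoglycan chains did not separate the sides. Of the 23 tested, 13 were higher and 10 lower, none at an unadjusted p under 0.05, with a median of 0.06 that was negative under 4 settings, at -0.036 without increased ALP tumour 9. XYLT2, which starts chondroitin and heparan sulfate chains, had the smallest p with a difference of 0.19 ± 0.09 (SE; limma adjusted p = 0.447). HAS2, a hyaluronan synthase, had the highest difference of the list at 0.90, and UGDH, which makes the uronic acid precursor, the lowest at -0.68. The secretory and collagen-processing list, with 31 tested, had 13 higher and 18 lower and a median of -0.03. That median was positive under 5 settings, quantile normalization and 75th percentile scaling among them. It was 0.094 with the GAPDH 3′ to 5′ difference as a covariate. The list members LOXL3, a lysyl oxidase-like enzyme, and PCOLCE, an enhancer of procollagen cleavage, differed by 0.71 and 0.45. With CNMD left out of the score these differences were 0.319 and 0.260.

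By the smallest p over all genes, the 12 higher genes were ZNF292, SEPTIN4, FOXN3, WDR90, NAV3, FBN2, HAPLN1, RBBP6, IGF2, CYP2D15, P3H4 and GNB3, all with a limma adjusted p of 0.238. ZNF292, a zinc-finger protein, was 9.95, 10.14 and 10.63 in the rich and 8.79, 9.17 and 9.45 in the poor tumours, a difference of 1.04 ± 0.16 (SE), with the same sign in its 3 probe sets. FBN2, the microfibril protein fibrillin-2, was 8.52, 9.32 and 10.31 against 5.67, 7.56 and 8.11, a difference of 2.13 ± 0.46 (SE). P3H4, a partner of collagen-modifying enzymes in the endoplasmic reticulum, was 11.26, 11.57 and 12.41 against 10.52, 10.81 and 11.10, a difference of 0.91 ± 0.20 (SE). The FBN2 difference was 1.22 with CNMD left out of the score. For these 3 genes the sides did not overlap, and they are among the 44 genes of that kind. The middle tumours, however, ran from 6.81 to 11.79 for FBN2. Its highest values were in middle tumours, normal ALP tumour 6 at 11.79 and normal ALP tumour 1 at 10.7, above every rich tumour. The rest of the 12 differed by 0.39 to 0.99 apart from HAPLN1.

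IGF2, a fetal growth factor, carried the same adjusted p at low signal. It was 6.61, 7.54 and 8.06 in the rich and 6.47, 6.60 and 6.69 in the poor tumours, a difference of 0.92 ± 0.20 (SE; limma adjusted p = 0.238). The highest IGF2 value of the 18, 13.80, was in a middle tumour, increased ALP tumour 8, whose signal lay far above every rich tumour. With 9 tumours on each side the IGF2 difference was -0.12, and with COL2A1 left out of the score it was -0.48.

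The 12 lower genes by smallest p were SDF2L1, SLC25A5, RFESD, BIRC3, SERPINB6, YIF1B, ESD, CDC123, ABRACL, ATP5F1C, NDUFC1 and MICOS10, again with a limma adjusted p of 0.238. RFESD averaged 5.91, 6.17 and 6.65 in the rich, middle and poor tumours. The filter on low signal stood at 6.15, so the poor side carried RFESD past it. BIRC3, an inhibitor of apoptosis and regulator of NF-kappa B signalling, was 6.83, 7.30 and 7.66 in the rich and 8.19, 8.77 and 9.80 in the poor tumours, a difference of -1.60 ± 0.29 (SE). SERPINB6, an intracellular protease inhibitor, was 8.19, 9.14 and 9.53 against 9.88, 10.29 and 10.53, a difference of -1.23 ± 0.23 (SE). SDF2L1, a chaperone partner in the endoplasmic reticulum, was 9.45, 9.92 and 10.16 against 10.44, 10.83 and 11.02, a difference of -0.87 ± 0.16 (SE). With 9 tumours on each side the BIRC3 difference was -1.006, and with COL2A1 left out of the score that of SERPINB6 was -0.678.

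In each of these 3 genes every rich tumour lay below every poor tumour. They are among the 52 of 10713 genes (0.485%) of that kind, and were picked by their p between the same sides. SLC25A5, which exchanges ADP and ATP across the inner mitochondrial membrane, differed by -0.86 ± 0.15 (SE), and ATP5F1C, a subunit of the mitochondrial ATP synthase, by -0.72 ± 0.15 (SE). Both overlapped in 1 rich tumour. With CNMD left out of the score the SLC25A5 difference was -0.515, and with 9 tumours on each side that of ATP5F1C was -0.478. NDUFC1, a subunit of respiratory complex I, and MICOS10, which shapes the inner mitochondrial membrane, had smaller differences of -0.51 and -0.47. Neither overlapped, and both are also among those 52 genes. With 9 tumours on each side the NDUFC1 difference was -0.332. For 23 of the 24 genes of both directions the mean of the middle tumours lay between the means of the sides. These genes were picked by their p between the same sides, so the count is a description. For the cartilage matrix list it was 9 of 19.

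**Figure D3:**
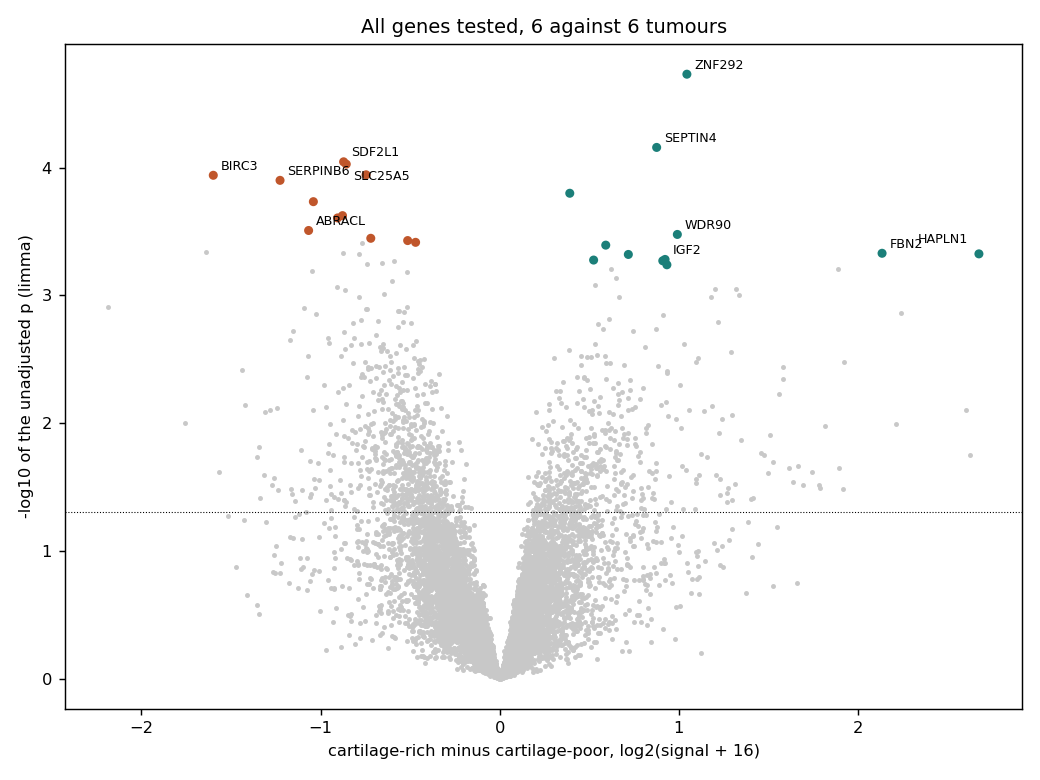
Difference between the means of the 6 cartilage-rich and 6 cartilage-poor tumours, in log2(signal + 16), against -log10 of the unadjusted p from limma for the 10713 genes tested, 1 probe set per gene; the dotted line is p of 0.05. Coloured points mark, for either direction, the 12 genes with the lowest p, some of them named, and HAPLN1 lies farthest right at 2.67; no gene passed the adjusted threshold.

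The widest differences among secreted BMP, TGF-beta and Wnt regulators were those of BMP5 and FRZB. BMP5, a bone morphogenetic protein of cartilage condensations, was 7.04, 8.65 and 12.10 in the rich and 5.82, 6.53 and 8.50 in the poor tumours, a difference of 2.21 ± 0.73 (SE; limma adjusted p = 0.326). FRZB, a secreted Wnt antagonist of articular cartilage, was 8.78, 10.34 and 11.24 against 6.45, 8.06 and 10.75, a difference of 1.74 ± 0.68 (SE; limma adjusted p = 0.382). TGFB1, a growth factor stored in bone matrix, was 9.34, 10.09 and 10.79 against 10.09, 11.38 and 12.03, a difference of -1.01 ± 0.38 (SE; limma adjusted p = 0.374). With 9 tumours on each side the BMP5 difference was 0.844, and with CNMD left out of the score the FRZB difference was 0.981 and that of TGFB1 -0.61. The sides overlapped in all 3, and over the 21 tested of this list 13 were higher and 8 lower with a median of 0.06.

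Bone-forming genes did not separate the sides. Of 21 tested, 7 were higher and 14 lower, none at an unadjusted p under 0.05, with a median of -0.10 that was positive under 5 settings, at 0.029 with arrays weighted by their fit in limma. ENPP1, which makes the mineralisation inhibitor pyrophosphate, had the smallest p with a difference of -1.08 ± 0.50 (SE; limma adjusted p = 0.438). RUNX2, the osteoblast master regulator, differed by -0.06, and COL1A1, the main collagen of bone, by 0.40. The dogs' groups were defined by serum ALP, and the labels name no form of the enzyme. ALPL, the gene of tissue-nonspecific ALP, was 8.54, 11.91 and 12.90 in the rich and 6.50, 12.40 and 13.57 in the poor tumours. Its difference of 0.38 ± 1.21 (SE; limma adjusted p = 0.921) had the opposite sign to the difference of the medians and held in 1 of its 2 probe sets. Without increased ALP tumour 2, which had the lowest ALPL, it was -0.55.

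Most osteoclast genes had a lower mean in the cartilage-rich tumours. Of 14 tested, 13 had a negative and 1 a positive difference, beside 5455 negative of the 10713 genes tested, with a median of -0.44. At an unadjusted p under 0.05, 2 of the 14 were lower, beside 6.52% of all genes. CTSK, the collagen-degrading cathepsin of osteoclasts, was 13.37, 13.75 and 13.93 in the rich and 13.65, 14.05 and 14.42 in the poor tumours, a difference of -0.35 ± 0.13 (SE; limma adjusted p = 0.379). ATP6V1B2, a subunit of the proton pump that acidifies bone, differed by -0.63 ± 0.29 (SE; limma adjusted p = 0.434). The list level ran from -1.64 to 0.41 in the rich and from -0.97 to 1.23 in the poor tumours, so the sides overlapped broadly. Normal ALP tumour 3, the rich tumour with the highest cartilage list level, had the lowest osteoclast level of the 18.

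Macrophage genes and genes of MHC class II presentation had lower means in the rich tumours, while neutrophil genes, given further on, mostly had higher ones. All 17 tested macrophage genes had a negative difference, with a median of -0.43. At an unadjusted p under 0.05, 1 of the 17 was lower, a share no higher than the 6.52% over all genes. CSF1R, the receptor for macrophage colony-stimulating factor, was 7.50, 7.94 and 8.64 in the rich and 8.12, 9.10 and 10.17 in the poor tumours, a difference of -1.08 ± 0.31 (SE; limma adjusted p = 0.294). The macrophage list level nevertheless ran from -0.82 to 0.70 in the rich and from -0.72 to 1.27 in the poor tumours. All 10 tested genes of MHC class II presentation also had a negative difference, with a median of -0.36, DLA-DQB1 at -1.15 ± 0.50 (SE; limma adjusted p = 0.419) having the smallest p. With 9 tumours on each side the DLA-DQB1 difference was -0.582. The MHC class II list level ran from -1.06 to 0.21 in the rich and from -0.97 to 1.14 in the poor tumours. Over the alternative settings the MHC class II median ran from -0.911 to -0.042 and the macrophage median from -1.02 to -0.122. Members of a list share tumours and cells and are not independent, so a count of signs is a description.

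Stromal lists pointed in differing directions. The fibroblast and interstitial matrix list had 16 of 23 tested members higher and 7 lower, and its median was 0.32, which was -0.009 with CNMD left out of the score. COL12A1, a fibril-associated collagen, was 11.74, 12.07 and 12.96 in the rich and 10.34, 11.20 and 11.92 in the poor tumours, a difference of 1.03 ± 0.27 (SE; limma adjusted p = 0.274). FBLN1, the matrix protein fibulin-1, differed by 0.98 ± 0.32 (SE; limma adjusted p = 0.321), and by 0.136 with CNMD left out of the score. S100A4, a calcium-binding protein of motile cells, differed by -0.75 ± 0.26 (SE; limma adjusted p = 0.347). Of the matrix proteinases and inhibitors, MMP2 differed by 1.02, or 0.273 with CNMD left out of the score, and TIMP1 by -0.59. The 16 tested had a median of 0.05, which was -0.058 with 9 tumours on each side. Of 10 smooth muscle and pericyte genes 9 were higher, with a median of 0.49, led by p by MYLK, the myosin light chain kinase, at 0.82 ± 0.27 (SE; limma adjusted p = 0.332). Endothelial genes had a median of -0.24 over 17 tested, and of 0.025 without normal ALP tumour 7, with PLVAP, a protein of vessel diaphragms, at -0.57.

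**Figure D4:**
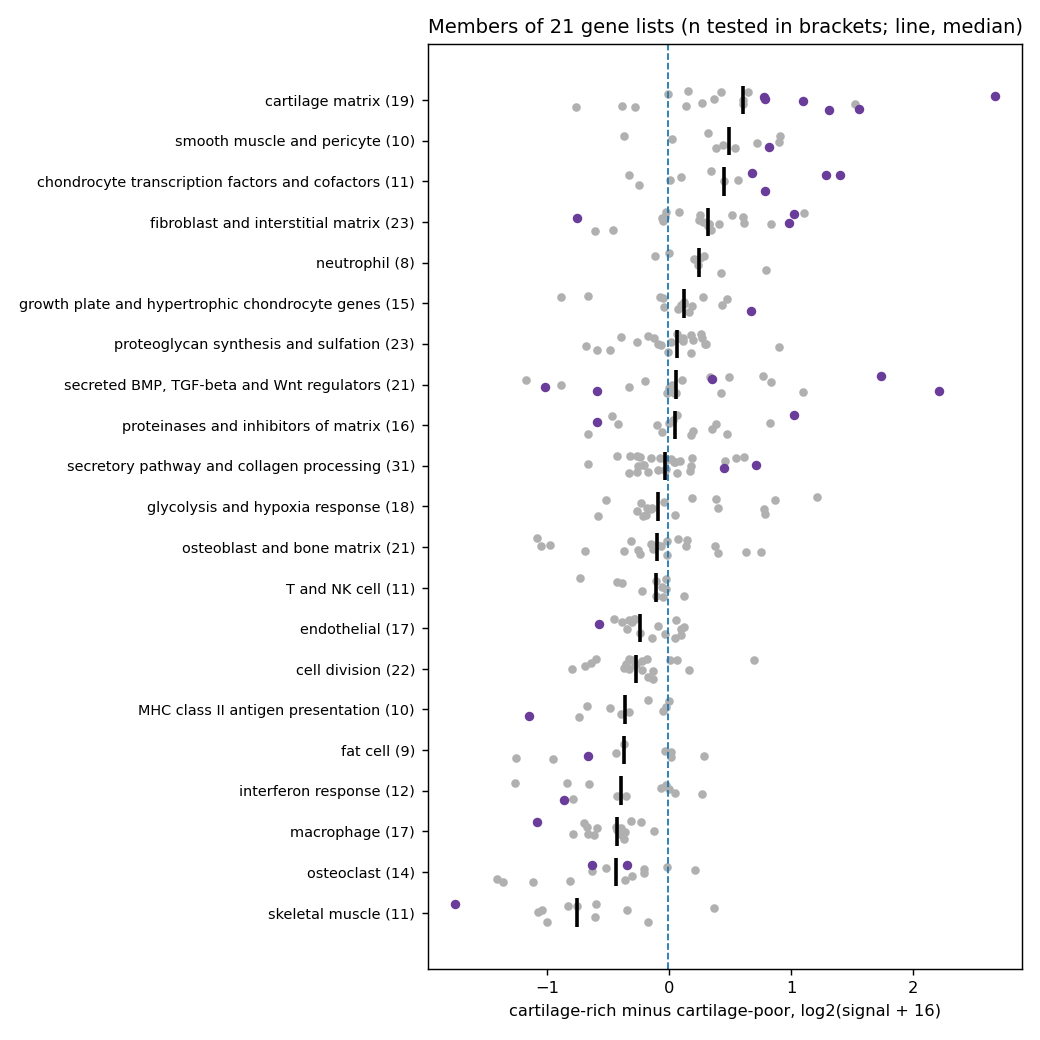
Difference of the means, cartilage-rich minus cartilage-poor, in log2(signal + 16), for each tested member of the 21 lists with at least 5 tested members, with purple points for an unadjusted p under 0.05, a black line at the list's median and a dashed line at the median over all genes, -0.01. The cartilage matrix list has the highest median, 0.61, and the skeletal muscle list the lowest, -0.75.

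Skeletal muscle genes stood apart in a few tumours rather than by side. Of 11 tested, 10 had a negative difference, with a median of -0.75, which was 0.24 with COL2A1 left out of the score. MB, myoglobin, was 5.56, 6.06 and 6.34 in the rich and 5.79, 8.20 and 9.39 in the poor tumours, a difference of -1.76 ± 0.58 (SE; limma adjusted p = 0.326), or -0.461 with COL2A1 left out of the score. The list level was 3.09 in the poor increased ALP tumour 4 and 4.76 in the middle normal ALP tumour 1, against at most 0.16 on the rich side. MYH1 and MYH2, the fast myosins, lay below the filter, with rich medians of 4.60 and 4.61. The part of muscle in the poor-side values of other genes was not tested.

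Cell division genes were lower in 18 of 22, with a median of -0.27, which was 0.04 without normal ALP tumour 3. CDK1, the mitotic kinase, differed by -0.80 ± 0.43 (SE; limma adjusted p = 0.493), or -0.429 without normal ALP tumour 3, its lowest rich value of 7.22 being that of normal ALP tumour 3, whose list level of -1.80 was the lowest of the 18. TOP2A, the topoisomerase of dividing cells, differed by 0.69. Interferon response genes were lower in 9 of 12, with a median of -0.39 and IFIH1, a sensor of viral RNA, at -0.86 ± 0.27 (SE; limma adjusted p = 0.307). Over the alternative settings that median ran from -0.725 to -0.105. The interferon list level ran from -0.80 to 0.70 in the rich and from -0.84 to 1.64 in the poor tumours, so the sides overlapped broadly.

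Fat cell genes were lower in 6 of 9, with a median of -0.37 that was 0.029 without increased ALP tumour 1, and PPARG, the adipocyte regulator, differed by -0.66. Increased ALP tumour 1, a poor tumour, had a fat cell list level of 2.13, and the rich side reached 0.65. T and NK cell genes were lower in 10 of 11 with a median of -0.10, which was 0.06 without increased ALP tumour 2 and 0.11 without it and normal ALP tumour 4. CCL5, a chemokine, differed by -0.73, by -0.379 without normal ALP tumour 9 and by -0.16 with SOX9 left out of the score. Neutrophil genes were higher in 6 of 8 with a median of 0.24 that was negative under 7 settings, among them -0.178 with the GAPDH covariate and -0.038 without increased ALP tumour 3. That tumour had the highest neutrophil list level, 1.73. MPO, myeloperoxidase, differed by 0.80, by 0.43 without increased ALP tumour 3 and by 0.199 without increased ALP tumours 3 and 6. Glycolysis and hypoxia genes split 8 higher and 10 lower with a median of -0.09 that was positive under 8 settings, and ALDOC, an aldolase, differed by 0.87, or 0.358 with ACAN left out of the score. The B and plasma cell, red cell and epithelial lists had 2, 1 and 1 tested members, with POU2AF1 at 0.05, SPTB at 0.24 and KRT18 at 0.28.

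**Figure D5:**
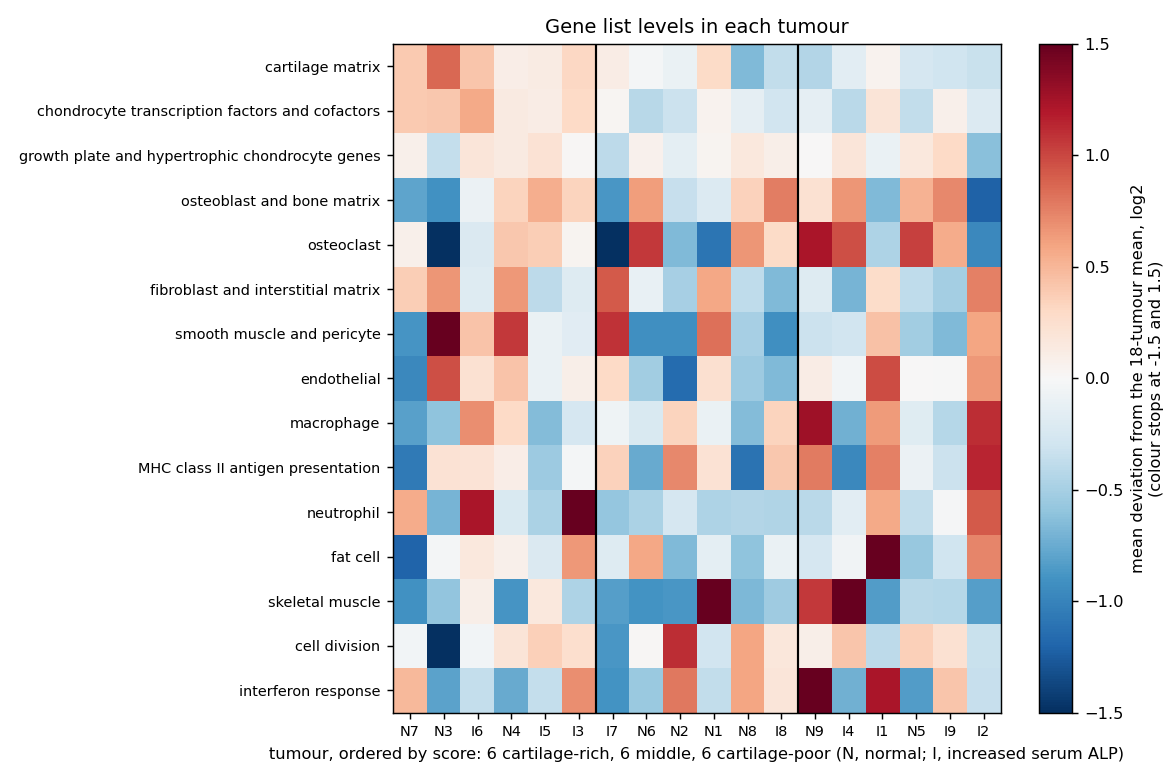
Level of 15 gene lists in each of the 18 tumours, as the mean deviation of the list's tested members from their 18-tumour means on the log2 scale, with tumours ordered by cartilage score and black lines between the sides and the middle; colour stops at -1.5 and 1.5. The cartilage matrix row is positive in all 6 rich tumours and in a few middle and poor ones, while the osteoclast, smooth muscle and skeletal muscle rows vary widely within each side.

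The difference between the sides was also compared between the serum ALP groups, with 3 normal and 3 increased tumours on the rich and 2 and 4 on the poor side. For this interaction limma called 0 of 25751 probe sets (0.0%), the smallest adjusted p was 0.372, and 1890 (7.34%) had an unadjusted p under 0.05. HAPLN1 was higher on the rich side by 2.03 in the normal and by 3.43 in the increased group (limma adjusted p = 0.76 for the difference). SOX5 was higher by 3.01 in the normal and by 0.08 in the increased group (limma adjusted p = 0.618). COL11A2 was higher by 0.20 and by 1.73 (limma adjusted p = 0.618). COMP was higher by 3.83 in the normal and lower, at -0.50, in the increased group (limma adjusted p = 0.67). ALPL stood at -1.83 in the normal and 1.83 in the increased group (limma adjusted p = 0.747). With 2 poor tumours in the normal group, these values rest on few arrays.

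PTN, pleiotrophin, a secreted heparin-binding growth factor abundant in cartilage, was called when the score entered as a continuous covariate over all 18 tumours rather than as sides. In that fit 7 probe sets passed as higher, 3 of PTN, 2 of RANGAP1 and 2 without a single gene name, with a smallest adjusted p of 0.0378. The covariate was the score that chose the sides, so these calls are a description and no independent evidence. Between the sides PTN was 12.09, 12.95 and 13.73 in the rich and 6.26, 10.70 and 12.74 in the poor tumours, a difference of 2.60 ± 0.83 (SE; limma adjusted p = 0.307). Of the rich tumours 3 lay above every poor tumour. RANGAP1, a regulator of nuclear transport, differed by 0.01 between the sides at its probe set of highest mean, which was not one of the 2 called.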

How the data were processed

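Total RNA of 18 primary canine osteosarcomas was measured on Affymetrix arrays. Per the submitters' processing notes the values came from MAS5 (version not given in the sources used here); the deposited table holds 1 log2 signal per probe set and array, with neither read counts nor detection calls, so the number of arrays limits the precision. Values were returned to the linear signal, raised by an offset of 16 and logged anew to base 2 (log2). Of 43035 probe sets, 111 controls and the 5 of the scoring genes were left out, as were probe sets whose mean over 18 arrays lay below the 40th percentile, which left 25751. A single gene symbol was given for 29254 probe sets and several for 439, by the platform annotation. A gene was read at its probe set of highest mean.

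The sides were compared with limma 3.58.1 (R 4.3.3; lmFit, eBayes with a trend), two-sided, with Benjamini-Hochberg adjustment at 0.05, on 6 against 6 tumours, after a test on simulated data. Quality measures used exact permutation over 924 splits, and serum ALP Fisher's exact test (Python 3.11.15, SciPy 1.17.1). Named genes were, for either direction, the 12 with the lowest p (none was called), with symbols beginning with LOC or that are clone numbers left out, then the member of smallest p of each list, and ALPL. Further members of lists, and PTN and RANGAP1, were named after their values were seen. The tumours compared and the gene lists were chosen with earlier results of these data known. Alternatives varied the offset, filter, scaling, moderation, covariates, score and tumours. The closest pair of arrays correlated at 0.982, so none was a copy of another.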

Additional observations from a re-analysis of the deposited data

Results flagged for a closer look

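In 85 genes and 3 sets of 6 tumours, 255 groups were searched for a single tumour far from the other 5, and 17 stood apart; chance alone gives about 1 in 20 groups. On the cartilage-rich side, normal ALP tumour 3 was low in CDK1 (7.22, the others 8.93 to 9.72), in ALPL (8.54, the others 11.59 to 12.90) and in TRPS1 (8.01, the others 8.65 to 8.95), and high in PRELP, a leucine-rich matrix protein (7.03, the others 6.25 to 6.41). Increased ALP tumour 6 was high in WWP2 (11.42, the others 9.24 to 9.93) and in MIA, a secreted cartilage protein (9.77, the others 6.95 to 7.95). Increased ALP tumour 5 was high in VIT, vitrin (7.76, the others 5.68 to 6.33), and normal ALP tumour 7 in FBLN1 (13.24, the others 11.72 to 12.24).

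On the cartilage-poor side, increased ALP tumour 4 was low in TIMP1 (13.25, the others 13.74 to 13.92) and in S100A4 (12.38, the others 13.34 to 13.71). Increased ALP tumour 2 was low in SLC25A5 (11.72, the others 12.17 to 12.41). Increased ALP tumour 1 was high in COMP (13.36, the others 8.44 to 9.85).

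Among the middle tumours, increased ALP tumour 8 was high in IGF2 (13.80, the others 6.43 to 7.51). Normal ALP tumour 1 was high in MB (11.30, the others 5.79 to 6.07) and in CILP (9.90, the others 5.54 to 6.47). Normal ALP tumour 6 was high in BARX1 (7.38, the others 6.30 to 6.62), and increased ALP tumour 7 was low in ABRACL (9.70, the others 10.50 to 10.93).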

How the results depend on the processing

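The comparison was run under 38 alternative settings, and single genes were followed over 36 or 37 of them. Of 85 genes followed, 73 kept their sign in each and 12 did not. Of the 24 genes of smallest p, 23 kept it, IGF2 being the exception, as did 15 of the 19 cartilage matrix members. The 24 were picked by their p between the main sides, and the settings share tumours with that fit. Their kept signs are therefore a description and no independent evidence. The median of the cartilage matrix list ranged from 0.211 to 0.713, and that of the chondrocyte regulators from 0.110 to 0.599. Probe sets called higher and lower were 7 and 0 with the score as a continuous covariate, 2 and 1 with the score without ACAN or without z-scores, and 2 and 0 without SOX9. Leaving out 1 tumour gave 0 to 4 higher and 0 to 1 lower; the calls came without normal ALP tumour 4. Without that tumour and increased ALP tumour 2, an alternative chosen after seeing the data, there were 1 and 1. ALPL was -0.341 without COL2A1 in the score, -0.029 without increased ALP tumours 3 and 6 (also chosen after seeing the data), and -0.724 to 0.978 as 1 tumour or both of the pair above were left out, reaching -0.553 without increased ALP tumour 2. The causes were not tested.

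The sign changes of single genes were as follows. Without COL2A1 in the score, IGF2 was -0.482, CHAD -0.343 and PRRX1 0.055. With 9 tumours a side, IGF2 was -0.119, CHAD -0.025 and ZBTB20 -0.073. Without CNMD, POU2AF1 was -0.073, S100A1 -0.008, PAX1 -0.032, ZBTB20 -0.002 and ITGA10 0.281. Without ACAN, and likewise without z-scores, ARID5B was -0.079, PAX1 -0.020 and ITGA10 0.346; without SOX9 ITGA10 was 0.014. With the GAPDH covariate, POU2AF1 was -0.110, MIA -0.043, BARX2 -0.062, PAX1 -0.122 and ITGA10 0.147; with the actin covariate POU2AF1 was -0.010, PAX1 -0.030 and ITGA10 0.056. With array weights, POU2AF1 was -0.042, PAX1 -0.040 and ITGA10 0.364. ITGA10 was also 0.009 with an offset of 1, 0.010 with none, 0.029 after quantile normalization, 0.053 after 75th percentile scaling and 0.047 with serum ALP group as a covariate. Without increased ALP tumours 3 and 6, POU2AF1 was -0.090 and PAX1 -0.089. As single tumours were left out, and again with the pair, CHAD ranged from -0.072 to 0.587, ITGA10 from -0.286 to 0.278, PAX1 from -0.047 to 0.062 and POU2AF1 from -0.017 to 0.114.

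Over 9 pairs of tumours of the same number, correlations of deviations ran from -0.164 to 0.27, and 4 exceeded 0.1. No values for pairs of different number are given beside them, so they do not settle whether the numbers pair the samples. With the number as a random replicate block in limma, 0 probe sets were called higher and 0 lower, and the smallest adjusted p was 0.262. The consensus correlation within blocks was 0.104, and only 2 numbers occurred on both sides, so this fit does not settle it either.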
